A study of Mus musculus with 20 samples.

Results

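The genes of the imprinted *Dlk1*-*Meg3* cluster of mouse chromosome 12 were followed over 20 livers. They were chosen by gene symbol and are 6 of the 50559 genes in the count table: *Meg3*, *Rian*, *Mirg*, *Rtl1*, *Dlk1* and *Dio3*. The members were put together with the difference between knockout and control livers already known, so that difference is given below as a description without a test. The comparison of the diets, averaged over both vectors, carries the tests. Earlier results of these data were known when the members were chosen, so the diet tests are not fully independent of that choice.

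All mice were *Cideb* fl/fl, with both alleles of the lipid droplet gene *Cideb* flanked by loxP sites, and all received an adeno-associated virus (AAV) whose cargo is driven by the hepatocyte promoter TBG. AAV-TBG-Cre removed *Cideb* from hepatocytes (KO), and AAV-TBG-GFP served as control (WT). Mice were male and were injected as young adults, then fed either a Western diet (WD) or CDA-HFD. WD was rich in sugar, fat and cholesterol and came with sugar water. CDA-HFD is a high-fat diet that lacks choline and supplies free amino acids in place of protein. The study's methods call it deficient in methionine as well. RNA-seq was done on 5 livers in each of the 4 groups, and the labels give 3 months on diet for every liver. KO livers differ from WT livers in the vector cargo as well as in *Cideb*, and each diet was fed to its own mice, so Cre and *Cideb* loss, and diet and cohort, cannot be told apart. The study's figure legends, including those of its RNA-seq values, name a longer feeding time on WD than on CDA-HFD, unlike the labels. Any such difference in these livers cannot be told apart from diet. These are whole livers, in which fewer cells of a type and less RNA per cell cannot be told apart.

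Reads on genes ranged from 11697049 to 16827147 per liver. *Cideb* followed the labels: WT livers held 35 to 100 reads and KO livers 0 to 6. KO liver 5 on CDA-HFD stood apart from the other KO livers. On the first principal component of the CDA-HFD livers, which held 59.9% of the variance, it lay at -41.7, among the WT livers at -64.5 to -7.76, while the other 4 KO livers lay at 43.3 to 66.9. Its *Cideb* count was 1. The levels of the members and the calls on CDA-HFD are therefore given with and without it.

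In an imprinted cluster the copy inherited from one parent is silenced. *Dlk1*, *Rtl1* and *Dio3* are made from the paternal chromosome and encode proteins, whereas *Meg3*, *Rian* and *Mirg* are long noncoding RNAs of the maternal chromosome, which also carry small nucleolar RNAs (snoRNAs) and a large array of microRNAs (miRNAs). The cluster is active in the fetal liver and placenta and is largely quiet in the adult liver. In mouse liver it is also known as a site where AAV vectors have been found inserted in tumors; insertion was not measured in these livers, and every group received AAV.

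On GRCm38 (mm10) the genes lie in the order *Dlk1* (chr12:109452823-109463336, plus strand), *Meg3* (chr12:109541001-109571726, plus), *Rtl1* (chr12:109589193-109600330, minus), *Rian* (chr12:109603940-109661716, plus), *Mirg* (chr12:109729764-109749460, plus) and *Dio3* (chr12:110279068-110281097, plus). *Rtl1* is transcribed against the maternal noncoding RNA, and 7 annotated miRNA precursors lie within it, 6 of them on the opposite strand. Whether the deposited counts used strand is not given in the sources used here, so reads of *Rtl1* and of the maternal RNA running through it cannot be told apart.

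The promoter of *Meg3* is shown because this is the start of the RNA with the most reads in the cluster. The window runs from 250 bases before to 50 bases after the RefSeq start, at chr12:109540746-109541045 on the plus strand of GRCm38.p6, and capitals mark the matches to 2 motifs. These were the cyclic AMP response element, TGACGTCA, and the TATA motif, TATAAA, both searched on both strands. The matches to TATAAA on the 2 strands overlap in the sequence.
Meg3 promoter: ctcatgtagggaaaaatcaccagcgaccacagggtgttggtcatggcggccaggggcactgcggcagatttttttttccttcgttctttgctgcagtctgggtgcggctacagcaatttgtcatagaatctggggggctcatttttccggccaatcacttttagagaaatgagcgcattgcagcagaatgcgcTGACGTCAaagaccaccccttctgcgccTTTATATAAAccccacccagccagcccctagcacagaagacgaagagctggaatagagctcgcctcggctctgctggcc
The response element begins 57 bases before the start. It was found in 588 of 32851 mouse promoter windows of this length (1.79%), and TATAAA in 4473 (13.6%). A further RefSeq entry for *Meg3*, at chr12:109545148-109545447, had neither motif. Among the other members with a promoter entry, *Dlk1*, *Rian* and *Mirg* had neither motif in their windows and *Dio3* had TATAAA.

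RefSeq lists 58 miRNA precursors with 113 mature miRNAs between *Dlk1* and *Dio3*, and all 58 matched rows of the count table. Mature sequences are shown for the 5 precursors of the *Meg3* to *Mirg* stretch with the most reads, picked after their values were seen. The seed, bases 2 to 8, which pairs with target mRNAs, is in capitals.
miR-1188-5p: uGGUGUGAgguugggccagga
miR-1188-3p: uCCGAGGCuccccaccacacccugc
miR-382-5p: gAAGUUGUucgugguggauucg
miR-382-3p: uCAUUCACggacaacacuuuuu
miR-453: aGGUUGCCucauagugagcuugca
miR-541-5p: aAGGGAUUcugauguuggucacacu
miR-541-3p: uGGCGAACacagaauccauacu
miR-409-5p: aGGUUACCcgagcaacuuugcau
miR-409-3p: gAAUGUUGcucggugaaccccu
Of 104 seeds, 9 were shared by 2 mature miRNAs of the cluster. One of these pairs joins miR-453 to miR-496a-5p, and the pairs from the *Mir379* to *Mir411* and *Mir376* stretches are shown beside it as examples of near copies in the array.
miR-496a-5p: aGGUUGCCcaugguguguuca
miR-379-3p: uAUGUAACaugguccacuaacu
miR-411-3p: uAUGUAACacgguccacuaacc
miR-376c-5p: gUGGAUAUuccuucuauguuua
miR-376b-5p: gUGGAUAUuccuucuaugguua
A seed that opens with GGU, as in miR-453, miR-496a-5p, miR-409-5p and miR-1188-5p, was found in 20 of the 113 mature miRNAs of the cluster (17.7%) and in 21 of 1566 other mouse miRNAs (1.34%).

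*Meg3* was almost silent on WD and abundant on CDA-HFD. In counts per 1000000 reads on the genes tested (CPM), WT livers on WD held 0.549, 0.688, 0.832, 1.19 and 0.803, and KO livers on WD 1.01, 0.544, 0.839, 1.44 and 1.10. On CDA-HFD, WT livers held 46.1, 47.5, 43.2, 27.9 and 31.2, and KO livers 216, 190, 274, 286 and 215. The 10 livers on CDA-HFD did not overlap the 10 on WD. Averaged over WT and KO, *Meg3* was 6.74 ± 0.16 (SE) higher on the log2 scale, a 107-fold rise (edgeR quasi-likelihood test over all genes, adjusted p = 1.99e-16). The exact permutation test with diets exchanged within each vector gave p = 3.15e-05, the smallest that its 63504 arrangements can give. In separate fits of each vector the rise was 5.59 ± 0.23 in WT and 7.88 ± 0.22 in KO livers on the log2 scale.

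**Figure D1:**
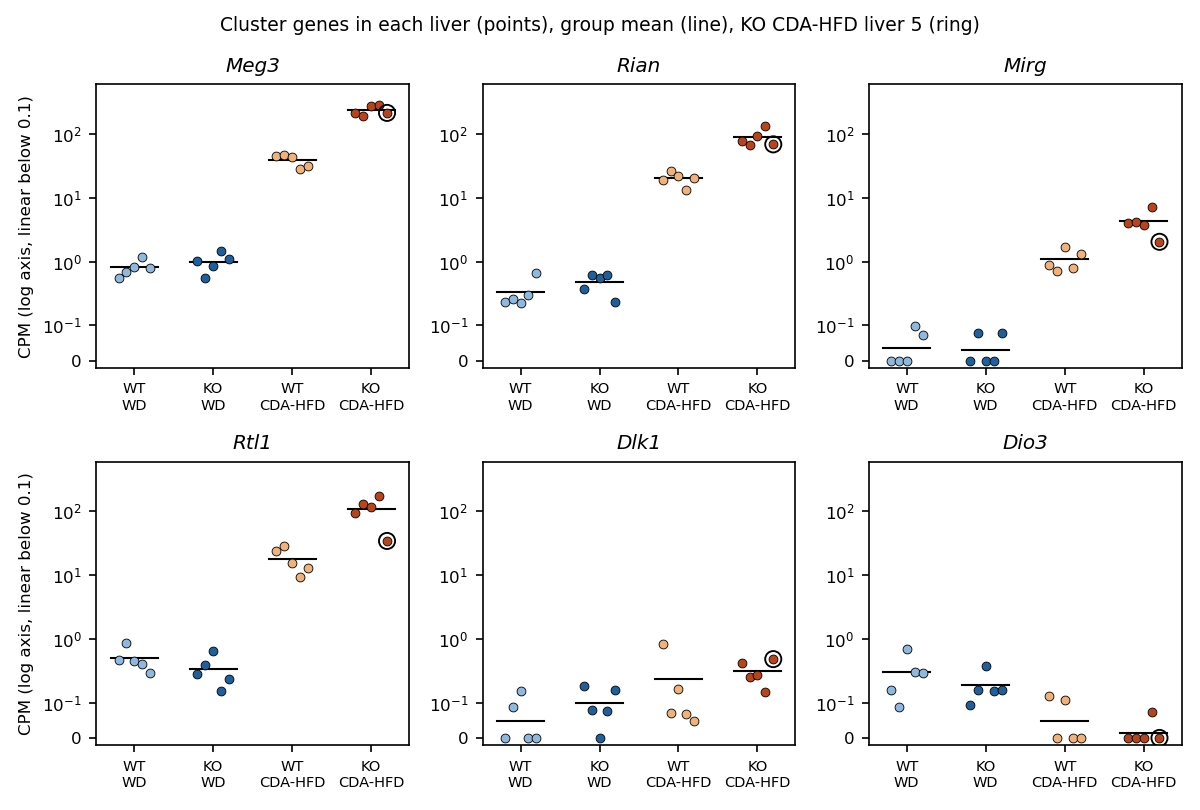
CPM of each of the 6 cluster genes (log axis, linear below 0.1) in the 4 groups, 1 point per liver, with the group mean as a line and KO liver 5 on CDA-HFD ringed. *Meg3*, *Rian*, *Mirg* and *Rtl1* sit higher in all 10 livers on CDA-HFD than in any of the 10 on WD, *Dlk1* overlaps, and *Dio3* lies mostly below its WD level.

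*Rian*, which carries most of the cluster's snoRNAs, had the same shape of pattern. WT livers on WD held 0.235, 0.258, 0.227, 0.298 and 0.657 CPM, and KO livers on WD 0.368, 0.622, 0.559, 0.608 and 0.235 CPM. On CDA-HFD, WT livers held 18.9, 26.3, 22.1, 13.5 and 20.2 CPM, and KO livers 78.5, 68.1, 94.4, 133 and 69.0 CPM. No CDA-HFD liver overlapped a WD liver, and the rise was 6.68 ± 0.21 on the log2 scale (edgeR, adjusted p = 1.35e-14). The exact test gave the same smallest p of 3.15e-05.

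*Mirg*, the host RNA at the far end of the miRNA array, was the least abundant of the 3 noncoding RNAs. Only 4 reads fell on it in the 10 WD livers together, against 408 in the 10 CDA-HFD livers, a depth-corrected ratio of 77.9 with a 95% exact interval of 30.2 to 287 that covers counting error only. On CDA-HFD, WT livers held 0.890, 0.705, 1.71, 0.806 and 1.33 CPM and KO livers 4.04, 4.18, 3.79, 7.20 and 2.04 CPM. The diets did not overlap. The fitted rise was 5.70 ± 0.43 on the log2 scale (edgeR, adjusted p = 7.81e-09; exact permutation p = 3.15e-05).

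Reads on *Rtl1*, a retrotransposon-derived gene known for its part in placental capillaries, rose with those of the noncoding RNAs. Those RNAs come from the other strand and the other parental copy. As the strand setting is not known, the reads counted on *Rtl1* cannot be told apart from reads of the maternal RNA running through it. WT livers on WD held 0.470, 0.860, 0.454, 0.397 and 0.292 CPM, and KO livers on WD 0.276, 0.389, 0.652, 0.152 and 0.235 CPM. On CDA-HFD, WT livers held 24.1, 28.3, 15.6, 9.26 and 13.1 CPM, and KO livers 94.6, 130, 116, 174 and 34.3 CPM. Again no CDA-HFD liver overlapped a WD liver. The rise was 6.75 ± 0.35 on the log2 scale (edgeR, adjusted p = 8.79e-11; exact permutation p = 3.15e-05). All 7 miRNA precursor rows within *Rtl1* were at 0 in every liver, and the part of strand and overlap in that was not tested.

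These rises were among the largest in the table. Of 17804 genes tested for diet, 9585 (53.8%) passed an adjusted p of 0.05, 5120 (28.8%) as higher and 4465 (25.1%) as lower on CDA-HFD. *Rtl1*, *Meg3* and *Rian* ranked 2, 3 and 4 by the size of the rise and *Mirg* 9. Of all genes tested, 2.6% were higher in every CDA-HFD liver than in every WD liver. *Rian*, *Mirg* and *Rtl1* passed the filter on low counts through the CDA-HFD livers alone, whereas the exact test was also run on *Dlk1* and *Dio3*, which did not pass. With library size as the only scaling, the median of all genes moved from 0.01 to 0.34 on the log2 scale and the share of calls that were higher moved from 53.4% to 85.3%, a shift that is small beside these 4 rises.

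**Figure D2:**
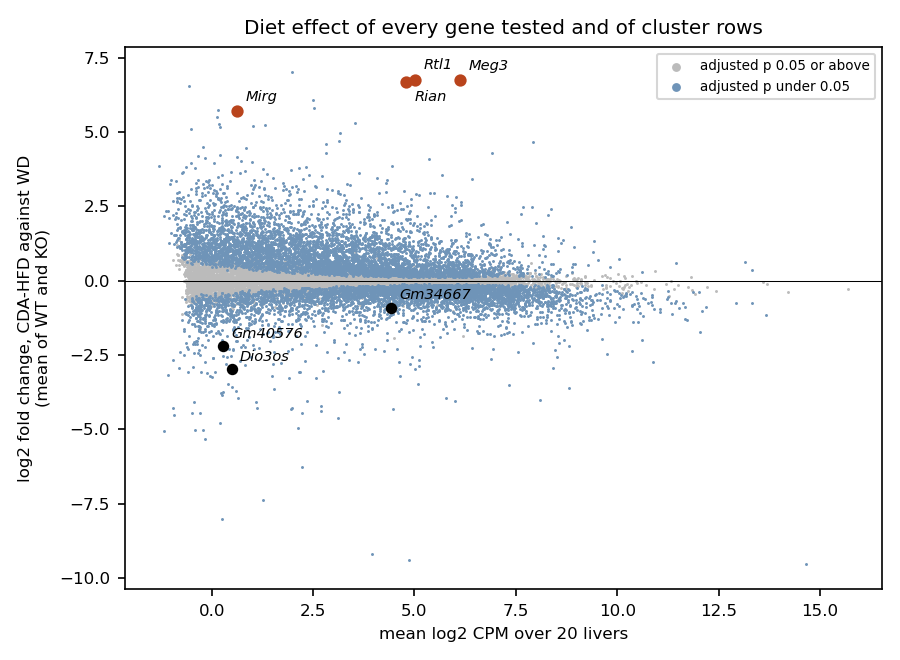
Log2 fold change of CDA-HFD against WD, averaged over WT and KO, against mean log2 CPM over the 20 livers, for the 17804 genes tested. The 4 cluster genes that passed the filter (red) lie between 5.70 and 6.75 at the top of the plot, and *Dio3os*, *Gm40576* and *Gm34667* (black), from the *Dio3* end of the cluster, lie below 0.

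The protein-coding genes at the ends of the cluster held few reads on either diet. *Dlk1*, a membrane-bound relative of the Notch ligands that marks fetal hepatoblasts, had 9 reads in all on WD and 43 on CDA-HFD. WT livers on CDA-HFD held 0.826, 0.0705, 0.166, 0.0671 and 0.0476 CPM, and KO livers 0.418, 0.254, 0.266, 0.147 and 0.480 CPM. WT liver 1 alone held 13 of the 19 WT reads, and the diets overlapped. The difference was 0.83 on the log2 CPM scale (exact permutation p = 0.00409), and it was 0.62 to 0.92, with p up to 0.0109, when each liver was left out in turn.

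*Dio3*, the deiodinase that inactivates thyroid hormone, moved the other way. It had 30 reads in the WD livers and 5 in the CDA-HFD livers, a ratio of 0.127 (95% exact interval 0.0386 to 0.331, counting error only). WT livers on WD held 0.157, 0.086, 0.681, 0.298 and 0.292 CPM and KO livers on WD 0.0920, 0.156, 0.373, 0.152 and 0.157 CPM. On CDA-HFD, 7 of the 10 livers held no read. The difference was -1.09 on the log2 CPM scale (exact permutation p = 0.000157), with p up to 0.000346 when each liver was left out in turn.

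The other rows of the table between *Dlk1* and *Dio3* sorted by position. Of 103 rows, 81 had a count in at least 1 liver. From *Meg3* to *Mirg*, 40 of 60 miRNA precursor rows and all 20 snoRNA rows had counts. The other 20 precursor rows, among them every one that starts before *Rian*, were at 0 in all livers. The 60 precursor and snoRNA rows with counts all had more reads on CDA-HFD than on WD. Of these, 55 had no read on WD, so their direction was set by having a count at all. A read on a precursor row comes from the long host RNA or its introns and does not measure the mature miRNA.

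Added up, the 40 precursor rows held 3 reads in the 10 WD livers, all of them in WT livers, and 669 in the CDA-HFD livers. On CDA-HFD, WT livers held 2.16, 2.11, 2.10, 1.28 and 1.33 CPM and KO livers 4.67, 6.34, 8.31, 13.7 and 2.46 CPM over these rows. The ratio of the diets was 170 (95% exact interval 58.0 to 828, counting error only), and the exact permutation test gave p = 3.15e-05. The 20 snoRNA rows held 2 reads on WD and 497 on CDA-HFD, a ratio of 190 (52.3 to 1572; exact permutation p = 3.15e-05). On CDA-HFD, WT livers held 1.78, 1.55, 1.22, 1.07 and 0.761 CPM and KO livers 3.41, 3.93, 4.79, 13.2 and 1.80 CPM over the snoRNA rows. Neither sum overlapped between the diets.

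The largest single snoRNA row was *AF357359*, within *Rian*, with no read in any WD liver and 155 on CDA-HFD. That was at least 39.5-fold higher against a floor of 3 reads over the WD livers (exact permutation p = 3.15e-05), and it passed the filter on low counts through the CDA-HFD livers alone. *Gm24564*, a snoRNA row also within *Rian*, had 1 read on WD and 45 on CDA-HFD.

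Past *Mirg*, the rows with the most reads were lower on CDA-HFD. *Gm34667*, a noncoding RNA 450 kb beyond the *Meg3* start, was 27.7 ± 10.03 CPM on WD and 14.7 ± 4.11 CPM on CDA-HFD (SD, n = 10), a change of -0.91 ± 0.20 (SE) on the log2 scale (edgeR, adjusted p = 0.000860; exact permutation p = 0.000945). *Gm40576*, 685 kb from the *Meg3* start, fell by 2.21 on the log2 scale (SE 0.29, edgeR, adjusted p = 5.41e-06; exact permutation p = 3.15e-05). Every CDA-HFD liver lay below every WD liver, the highest at 0.697 CPM against the lowest WD liver at 0.839 CPM. The share of all genes that fell without overlap was not computed. *Dio3os*, the noncoding RNA that runs beside *Dio3*, had 287 reads on WD and 50 on CDA-HFD and fell by 2.97 on the log2 scale (SE 0.41, edgeR, adjusted p = 9.55e-06; exact permutation p = 6.30e-05), with the diets overlapping. *Gm40576* and *Dio3os* passed the filter through the WD livers alone. With library size as the only scaling these falls would be read against a median of 0.34 rather than 0.01.

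**Figure D3:**
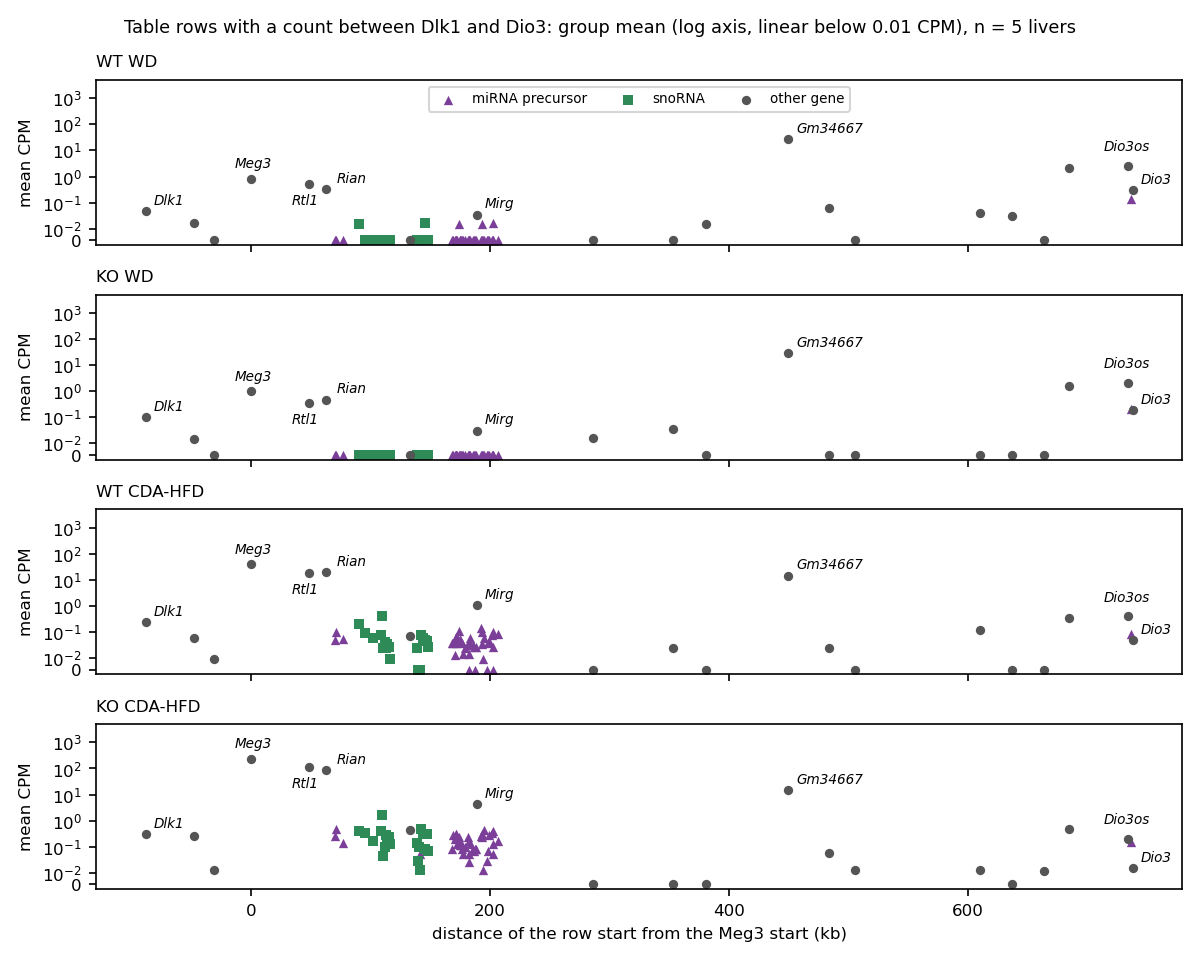
Mean CPM over 5 livers (log axis, linear below 0.01) of the 81 rows with a count between *Dlk1* and *Dio3*, by distance of the row start from the *Meg3* start, 1 panel per group. The miRNA precursor and snoRNA rows shown from the *Meg3* to *Mirg* stretch start within or beyond *Rian*. They sit at or near 0 in both WD panels and rise in the CDA-HFD panels. *Gm34667*, *Dio3os* and *Dio3*, beyond that stretch, sit higher on WD.

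Within each diet, KO and WT livers are compared as a description only. On WD the KO and WT livers overlapped for all 6 members. *Meg3* averaged 0.812 ± 0.239 CPM (WT) and 0.987 ± 0.331 CPM (KO; SD, n = 5), and it was the single member that passed the filter there, at 0.30 ± 0.30 (SE) on the log2 scale. Across all genes, 12 of 15848 (0.0757%) passed an adjusted p of 0.05 on WD.

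On CDA-HFD, *Meg3*, *Rian*, *Mirg* and *Rtl1* were higher in every KO liver than in any WT liver. Of all 17204 genes tested there, 5.03% were higher in every KO than in every WT liver and 2664 (15.5%) passed an adjusted p of 0.05; the members were gathered with this contrast known, so nothing is read from their share. *Meg3* averaged 39.2 ± 9.01 CPM (WT) and 236 ± 41.4 CPM (KO; SD, n = 5), 6.03 times the WT mean and 6.16 times without KO liver 5. *Rian* was 20.2 ± 4.68 and 88.6 ± 27.1 CPM, 4.39 times and 4.63 times without that liver. *Mirg* was 1.09 ± 0.42 and 4.25 ± 1.86 CPM, 3.91 times and 4.41 times without it. *Rtl1* was 18.1 ± 7.89 and 110 ± 51.3 CPM, 6.08 times and 7.13 times without it.

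The fitted differences on the log2 scale were 2.59 ± 0.18 for *Meg3*, 2.13 ± 0.22 for *Rian*, 1.93 ± 0.35 for *Mirg* and 2.60 ± 0.42 for *Rtl1* (SE). Without KO liver 5 they were 2.62 ± 0.18, 2.21 ± 0.21, 2.10 ± 0.29 and 2.83 ± 0.29. *Dlk1* and *Dio3* overlapped between KO and WT. All 40 miRNA precursor rows and all 20 snoRNA rows from *Meg3* to *Mirg* with a count had a higher mean in KO than in WT livers. The rows were kept for having a count, and some rest on few reads, such as 1 in WT and 1 in KO livers for *Mir485*. They are neighbors in the same cluster and do not count as separate results. Their sums were 3.88 times (3.23 to 4.69) and 4.21 times (3.38 to 5.27) the WT value, with 95% exact intervals for counting error only. Without KO liver 5 they were 4.59 times (3.81 to 5.56) and 4.99 times (3.999 to 6.26). KO liver 4 held 180 of the 393 snoRNA reads of the KO livers, and without it the sums were 3.03 times (2.49 to 3.71) and 2.78 times (2.19 to 3.55) the WT value.

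KO liver 5 on CDA-HFD did not sit in one place within the cluster. Its *Meg3* level of 215 CPM, 5.47 times the WT mean, and its *Rian* level of 69.0 CPM, 3.42 times the WT mean, were inside the range of the other KO livers. Its *Rtl1* level of 34.3 CPM, 1.90 times the WT mean, and its *Mirg* level of 2.04 CPM, 1.87 times the WT mean, were the lowest of the KO livers, above every WT liver. Per 100 *Meg3* reads it held 16.0 *Rtl1* reads, where the other KO livers held 42.3 to 68.1 and the WT livers 33.2 to 59.5. Its precursor and snoRNA sums were also the lowest of the KO livers, and its snoRNA sum of 1.80 CPM lay next to the highest WT value of 1.78 CPM.

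Set against *Meg3*, *Rian* had 52.1 ± 8.83 reads per 100 *Meg3* reads in WT and 37.1 ± 5.55 in KO livers on CDA-HFD (SD, n = 5), and the ranges of 40.9 to 64.8 and 32.2 to 46.6 overlapped.

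Levels can be set side by side between genes only per length, here as CPM per kb of annotated exon. In KO livers on CDA-HFD the order was *Rtl1* (17.3 ± 8.07), *Meg3* (13.1 ± 2.29), *Rian* (4.86 ± 1.49), *Mirg* (0.583 ± 0.255), *Dlk1* (0.0553 ± 0.0238) and *Dio3* (0.00724 ± 0.0162; SD, n = 5). In WT livers on CDA-HFD the order was the same, from 2.84 ± 1.24 for *Rtl1* and 2.17 ± 0.50 for *Meg3* down to 0.0416 ± 0.0589 for *Dlk1* and 0.0234 ± 0.0322 for *Dio3*. *Rtl1* and *Meg3* differed by less than their spread in both groups, as did *Dlk1* and *Dio3* in WT livers. On WD *Dio3* led the order, at 0.149 ± 0.113 in WT and 0.0915 ± 0.0532 in KO livers, followed by *Rtl1* (0.0778 ± 0.0339) and *Meg3* (0.0449 ± 0.0132) in WT and by *Meg3* (0.0546 ± 0.0183) and *Rtl1* (0.0536 ± 0.0305) in KO livers. These neighbors too lay within their spread.

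Whether the members moved together from liver to liver within a group was tested on deviations of log2 CPM from the group mean. The 6 pairs of *Meg3*, *Rian*, *Mirg* and *Rtl1* were compared. Over all 20 livers, Pearson r for *Meg3* and *Rian* was 0.264 (permutation p = 0.311, adjusted p = 0.565) and Spearman rho 0.344 (permutation p = 0.172, adjusted p = 0.415), and r was 0.381 without the 2 livers farthest from the median. The other 5 pairs had r from 0.0845 to 0.363 and permutation p from 0.141 to 0.725, and none passed.

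The WD livers, with 7 to 19 *Meg3* reads each, weigh as much in that test as the CDA-HFD livers. In the 10 CDA-HFD livers alone, a choice made after seeing the data, r for *Meg3* and *Rian* was 0.806 (exact permutation p = 0.00479, adjusted over the 6 pairs 0.0288) and rho 0.794 (exact permutation p = 0.00882, adjusted 0.0469). It was 0.825 without the 2 livers farthest from the median, 0.760 in the WT and 0.911 in the KO livers. For *Meg3* and *Rtl1*, r was 0.637 (exact permutation p = 0.0521, adjusted 0.107) and rho 0.794 (exact permutation p = 0.0156, adjusted 0.0469), and r was 0.509 without the 2 farthest livers. The other 4 pairs had adjusted p for r from 0.107 to 0.564.

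**Figure D4:**
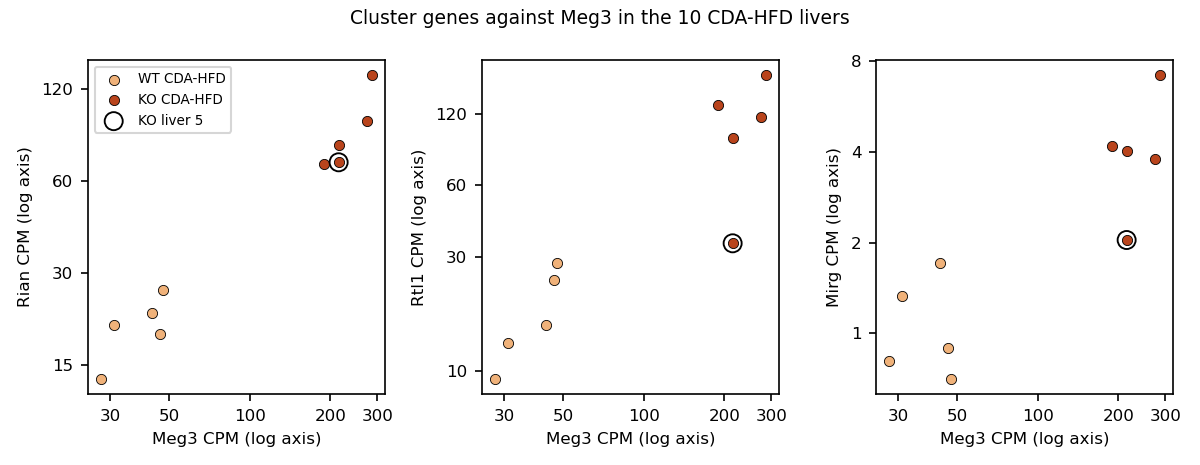
CPM of *Rian*, *Rtl1* and *Mirg* against CPM of *Meg3* (both log axes) in the 10 CDA-HFD livers, with KO liver 5 ringed. Pearson r of *Rian* and *Meg3* on log2 CPM is 0.760 in the WT and 0.911 in the KO livers (n = 5 each). These livers were singled out after seeing the data, and over all 20 livers r was 0.264 and did not pass. KO liver 5 keeps a *Meg3* level of 215 CPM with the lowest *Rtl1* (34.3 CPM) and *Mirg* (2.04 CPM) of the KO livers.

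Genes outside the cluster were next ordered by their likeness to *Meg3*, as Pearson r over the log2 CPM of the 20 livers, a description in which livers share group and diet. Members led: *Rian* ranked 1 (r = 0.991), *Rtl1* 2 (0.979) and *Mirg* 4 (0.974) of 17803 genes. This r includes the differences between groups, and the members were gathered with the KO difference known, so nothing is read from their ranks. Among annotated genes outside the cluster whose log2 CPM averaged 2 or more, the highest included the RNA-editing enzyme *Adar* (0.944), the nucleic acid sensor *Zbp1* (0.940), the antiviral gene *Oas1a* (0.937) and the cytolinker *Ppl* (0.936). The lowest were the fatty acid desaturase *Scd1* (-0.983), *Dcaf12l1* (-0.965), *Adam11* (-0.953), the malic enzyme *Me1* (-0.950) and the transketolase *Tkt* (-0.937). The group means of *Scd1* on WD were 55090 CPM (WT) and 47890 CPM (KO), and on CDA-HFD 209 CPM (WT) and 22.7 CPM (KO).

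With the group means removed, the likeness went with other genes. Those named are the extremes of 11035 genes compared, without a test, and the WD livers in this measure held 7 to 19 *Meg3* reads each. No link to *Meg3* is read from them. The highest r to *Meg3* over 20 livers was 0.782 for *Sdhaf4*, followed by *Hectd2os* (0.772), *Pls3* (0.745), *Psma3* (0.727) and *Vamp7* (0.711), and the lowest were *Ndor1* (-0.740), *Mthfsd* (-0.722), *Dst* (-0.696), *Agap2* (-0.695) and *Tuft1* (-0.675). *Rian* ranked 3077, *Mirg* 5396 and *Rtl1* 6695 of 17803 by this measure.

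The neighborhood of the cluster was compared next. The 10 tested protein-coding genes nearest on each side lay 166 to 1122 kb away. On CDA-HFD against WD, 4 of the 20 were higher and 5 lower, beside 28.8% and 25.1% of all genes tested. Their changes ran from -2.37 to 1.53 on the log2 scale, all below the 5.70 to 6.75 of the 4 tested members. Those that rose were *Degs2* (1.53), *Evl* (1.15), *Eml1* (0.72) and *Mok* (0.63), and those that fell were the brain cholesterol hydroxylase *Cyp46a1* (-2.37), *Slc25a47* (-0.73), *Tecpr2* (-0.40), *Zfp839* (-0.27) and *Yy1* (-0.22; edgeR, adjusted p up to 0.0383). In KO against WT livers on CDA-HFD, *Zfp839* was higher (0.32) and *Evl* (-1.04) and *Ppp2r5c* (-0.26) lower (edgeR, adjusted p 0.0274 to 0.0441), where 15.5% of all genes passed. On WD none of the 20 passed.

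**Figure D5:**
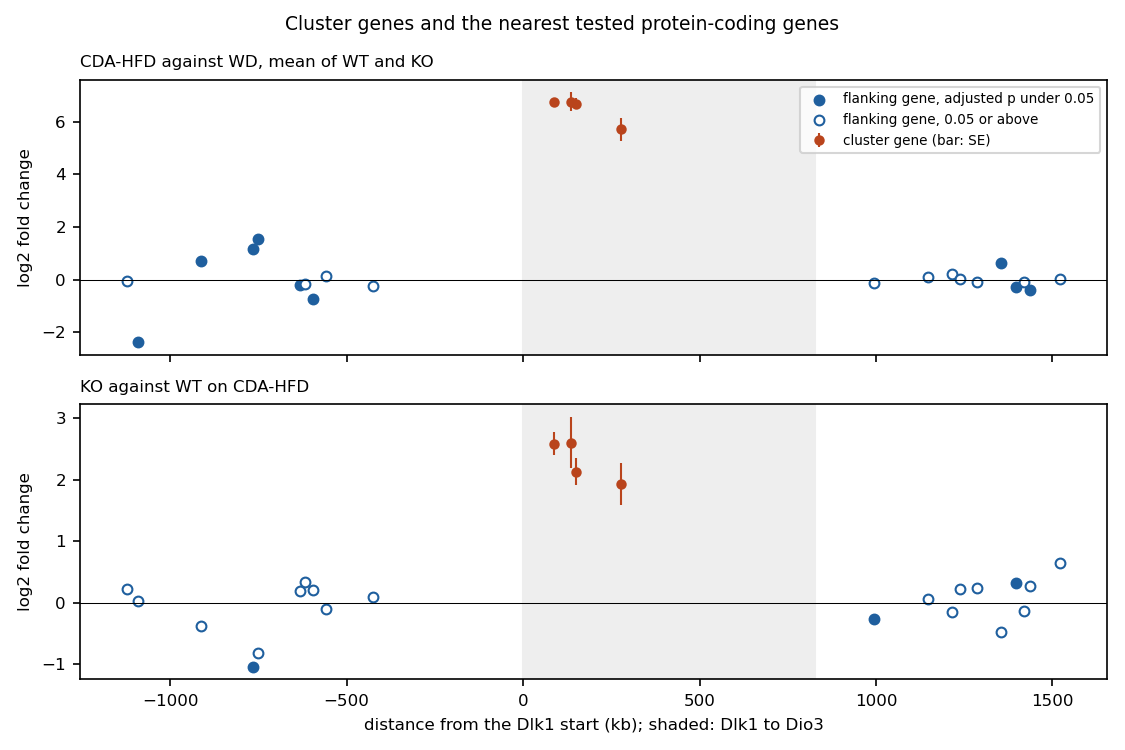
Log2 fold change of the 20 nearest tested protein-coding genes (blue, filled where the adjusted p is under 0.05) and of *Meg3*, *Rtl1*, *Rian* and *Mirg* (red, bars show SE), by distance from the *Dlk1* start, for the diet (top) and for KO against WT on CDA-HFD (bottom). The flanking genes lie between -2.37 and 1.53 in the top panel, and the cluster genes above them at 5.70 to 6.75.

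Imprinted genes elsewhere in the genome were called about as often in either direction. Of 44 tested, 15 were higher and 14 lower on CDA-HFD than on WD, with a median of 0.16 on the log2 scale against 0.01 for all genes. These counts, and those of the lists that follow, are to be read beside the 28.8% and 25.1% of all genes called higher and lower. The 3 with the smallest adjusted p were *Ddc* (-1.16), *Atp10a* (2.52) and the proteoglycan *Dcn* (1.20; edgeR, adjusted p 3.67e-08 to 4.51e-06). In KO against WT livers on CDA-HFD, 5 of 43 were higher and 5 lower. Counts of this contrast, here and in the lists that follow, are to be read beside the 15.5% of all genes called in it. *H19*, an imprinted noncoding RNA of the fetal liver, changed the other way from *Meg3*, at -3.00 ± 0.38 (SE) on the log2 scale (edgeR, adjusted p = 0.00445), as did *Gatm* (-0.69, adjusted p = 0.00927) and *Airn* (-1.18, adjusted p = 0.0124).

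Among 25 tested genes of imprint control and DNA methylation, 13 were higher and 4 lower on CDA-HFD. The maintenance methyltransferase *Dnmt1* rose by 0.56 and *Smchd1* by 0.37, and *Zfp445*, a zinc finger protein that guards imprints, fell by 0.79 on the log2 scale (edgeR, adjusted p 1.87e-07 to 7.46e-05). In KO against WT livers on CDA-HFD, 1 was higher and 3 lower, with *Zfp445* at 0.52, *Uhrf1* at -0.996 and *Smchd1* at -0.41 (edgeR, adjusted p 0.0158 to 0.0198). DNA methylation itself was not measured.

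Genes that share a pathway with a member were counted too. Of 29 Notch pathway genes, the setting of *Dlk1*, 11 were higher and 8 lower on CDA-HFD, led by *Sox9* (1.17), *Adam17* (0.55) and *Adam10* (0.62; edgeR, adjusted p 8.24e-06 to 2.51e-05). Between KO and WT on CDA-HFD, 3 were higher and 5 lower, with *Notch4* at 0.54, *Adam17* at -0.45 and *Notch1* at 0.36 (edgeR, adjusted p 0.0154 to 0.0223). Of 20 thyroid hormone genes, the setting of *Dio3*, 2 were higher and 11 lower on CDA-HFD, with a median of -0.31, with *Me1* at -3.51 and *Gpd2* at -1.23 (edgeR, adjusted p 5.92e-11 and 1.38e-07). Between KO and WT on CDA-HFD, 2 were higher and 1 lower, namely the transporter *Slc16a10* (1.04), *Sult1b1* (0.77) and the hormone carrier *Serpina7* (-1.15; edgeR, adjusted p 0.00927 to 0.0490).

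The relatives of *Rtl1* changed by less. Of 5 tested genes of the same retrotransposon-derived family, *Rtl8c* (1.37) and *Rtl6* (1.31) were higher on CDA-HFD and *Peg10* (-1.14) lower (edgeR, adjusted p 0.000167 to 0.00104), and *Peg10* was lower in KO than in WT livers on CDA-HFD (-1.56, adjusted p = 0.0191). Of 16 genes of small RNA processing, 4 were higher and 1 lower on CDA-HFD, led by the snoRNP protein *Nop58* (0.57), *Dgcr8* (0.28) and *Nop56* (0.34; edgeR, adjusted p 1.50e-05 to 0.00148), and 1, *Nop58* (-0.49), was lower in KO than in WT livers on CDA-HFD (adjusted p = 0.0184). On WD no gene of any of these lists passed between KO and WT.

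Markers of several cell types were called with diet as well, beside 28.8% of all genes higher and 25.1% lower. On CDA-HFD, 17 of 23 tested stellate cell markers were higher and 2 lower, 19 of 24 macrophage markers were higher and 1 lower, and 12 of 15 cholangiocyte markers were higher and 1 lower. For lymphocyte markers 15 of 19 were higher, and for fetal liver and progenitor markers 12 of 18 were higher and 1 lower. Of 19 hepatocyte markers 10 were lower and none higher, and of 19 endothelial markers 2 were higher and 10 lower. The hepatocyte markers summed to 49537 to 149811 CPM over all livers, and 1 lymphocyte marker was the only marker of these lists at 0 in every liver.

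Summed per liver, stellate cell markers on WD spanned 1164 to 1925 CPM (WT) and 1112 to 1856 CPM (KO), and on CDA-HFD 3406 to 5703 CPM (WT) and 2042 to 5728 CPM (KO). Macrophage markers on WD spanned 764 to 2430 CPM (WT) and 665 to 1191 CPM (KO), and on CDA-HFD 3413 to 6533 CPM (WT) and 1187 to 4262 CPM (KO). The mean over CDA-HFD livers was 2.48 times that over WD livers for the stellate sum, 2.75 times for the macrophage sum and 2.35 times for the fetal sum. Mean *Meg3* was 0.900 CPM over the WD livers and 138 CPM over the CDA-HFD livers. The part of these cells in the diet difference was not tested.

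Between KO and WT on CDA-HFD most marker calls were lower in KO livers. Among all 17204 genes tested there, 1409 were called higher and 1255 lower, 15.5% together, and the counts below are to be read beside that. No macrophage marker was higher and 11 of 24 were lower in KO livers, 1 stellate cell marker was higher and 5 of 23 lower, and 6 of 18 fetal liver and progenitor markers were lower with none higher. Of the hepatocyte markers 3 of 19 were higher and none lower, and none of the 19 endothelial markers passed. Of the cholangiocyte markers 1 was higher and 1 lower of 15, and of the lymphocyte markers 1 and 1 of 19.

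Leaving out KO liver 5, an alternative added after seeing the data, raised the calls on CDA-HFD from 2664 to 7201 of 17411 genes (41.4%). Of the macrophage markers 2 were then higher and 19 lower in KO livers, of the stellate cell markers 2 and 16, of the cholangiocyte markers 1 and 12, and of the fetal liver and progenitor markers none and 15. Hepatocyte markers gave 9 higher and none lower, endothelial markers 11 and 1, and lymphocyte markers 1 and 2. Imprinted genes elsewhere gave 6 higher and 16 lower, genes of imprint control 2 and 7, Notch genes 7 and 9, thyroid hormone genes 10 and 3, and the flanking genes 5 and 5. The relatives of *Rtl1* gave none higher and 3 lower, and small RNA processing 1 and 1. Every gene of these lists and flanks named above as different between KO and WT on CDA-HFD kept its direction and passed (edgeR, adjusted p 0.000214 to 0.0356).

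KO liver 5 lay with the WT livers in several marker sums. Its macrophage sum of 4262 CPM and its fetal sum of 537 CPM lay inside the WT ranges of 3413 to 6533 and 511 to 847 CPM, and outside the ranges of 1187 to 1567 and 132 to 202 CPM of the other 4 KO livers. Its hepatocyte sum of 55914 CPM was likewise inside the WT range of 49537 to 101564 CPM and below the other KO livers at 102801 to 146906 CPM. Its stellate sum of 5728 CPM was above the highest WT value of 5703 CPM. Beside these values, its *Meg3* and *Rian* levels stayed in the range of the other KO livers. Its *Rtl1*, *Mirg*, precursor and snoRNA levels were the lowest of the KO livers.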

How the data were processed

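Liver RNA from 20 mice was sequenced, 75 bp single-end per the study's methods. The authors deposited a table of raw read counts per gene. The build mm10 comes from the submitters' processing notes, and the aligner, counter, annotation and strand setting are not given in the sources used here. The methods and the labels name different library kits. The 5 tallies of reads not on genes were left out.

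Counts were tested with edgeR 4.0.16 in R 4.3.3 (quasi-likelihood test, TMM scaling, filterByExpr, Benjamini-Hochberg over all genes, threshold 0.05), checked on simulated counts. CPM are counts per 1000000 reads on the genes tested, with TMM-scaled library sizes, and log2 CPM a prior count of 2. Single genes were also compared by an exact two-sided permutation test, and correlations used 100000 permutations within groups. DESeq2 1.42.0 and the other alternatives are in the closing section. Coordinates and exon lengths come from GENCODE M21 and sequences from RefSeq GRCm38.p6.

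The members and gene lists were chosen with earlier results of these data known. Apart from the members, the text names, for the lists that are not cell type markers, the 3 genes with the smallest adjusted p where any passed, the flanking genes that passed, the 5 other cluster rows with the most reads, and the 5 genes most and least like *Meg3*. One gene that this rule names is not reported here. Intervals cover counting error only. Each sample is 1 liver. Same-numbered livers did not deviate together (correlations -0.367 to 0.349 over 30 pairs), so numbers were not treated as pairs. No 2 livers of a group agreed within sampling noise (chi-square over its degrees of freedom 6.42 to 120).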

Additional observations from a re-analysis of the deposited data

Results flagged for a closer look

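Over 26 sets of 5 livers, 4 held a liver whose gap to its nearest neighbor was a large share of the whole range. Chance alone would give about 1.3 in independent sets. These sets share livers and some hold few reads, so no excess is read from this. *Rian* in WT liver 5 on WD was 0.657 CPM against 0.227 to 0.298 CPM in the others (gap over range 0.836). *Dlk1* in WT liver 1 on CDA-HFD was 0.826 CPM against 0.0476 to 0.166 CPM (0.848). *Dio3* in KO liver 3 on WD was 0.373 CPM against 0.0920 to 0.157 CPM (0.770). These 3 values rest on 9, 13 and 4 reads. The summed snoRNA rows in KO liver 4 on CDA-HFD were 13.2 CPM against 1.80 to 4.79 CPM (0.739), from 180 reads.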

How the results depend on the processing

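The diet rises of *Meg3*, *Rian*, *Mirg* and *Rtl1* passed under every scaling, tool, filter and replicate block that tested them and without any 1 liver; *Meg3* ranged from 5.59 (WT livers only) to 7.88 (KO livers only) on the log2 scale. The diet difference called 2792 genes in KO livers only. The KO difference on WD called 164 genes with DESeq2, 38 without a filter on low counts, 2 with the replicate block, and 1 to 33 with each liver left out, against 12. On CDA-HFD it called 4146 with DESeq2, 1709 with library size only (30.3% of them higher in KO, against 52.9%), and 709 to 7201 with each liver left out, most without KO liver 5, against 2664. With library size only, the median of all genes there was -0.19 and *Meg3* 2.37. The replicate block gave 2.60 for the KO difference of *Meg3* on CDA-HFD and 0.27 on WD, and left the diet calls of the 4 genes in place. The correlation of *Meg3* and *Rtl1* over 20 livers turned to -0.0190 with a prior count of 0.5 and to -0.0058 with library size only, and that of *Mirg* and *Rtl1* to -0.14 without KO liver 5; none of these passed. The correlation of *Meg3* and *Rian* passed in the CDA-HFD livers only (0.81), an alternative added after seeing the data. The causes were not tested. *Dlk1*, *Dio3* and the single precursor rows rest on few reads, where depth limits any difference.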
